A study of Mus musculus with 62 samples.

Results

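The genes described here are 34 genes of cholesterol and fatty acid synthesis, followed in the cerebellum of mice during melanoma cachexia, the wasting of fat and muscle that can accompany a tumour. They were chosen by name from known pathway membership, but with earlier results of these data known. Counts of called members are therefore no independent test of the pathway. The list holds 8 enzymes of the mevalonate pathway, 12 enzymes that make squalene and sterols, 6 SREBP regulators and 8 lipogenic genes. The sterol carrier gene Stard4 is counted among the regulators. All 34 were found among the 47643 symbols of the expression table, and all 34 were among the 14399 symbols tested, which had a mean of at least 1 TPM (transcripts per 1e+06 transcripts) over all libraries.

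The study sequenced RNA of cerebellum in 62 libraries. Mice received melanoma cells that cause cachexia (CAC), melanoma cells that do not (NCAC), or a mock injection (mock), and each treatment was sampled at 2, 4, 6 and 8 weeks after injection. There were 5 libraries in every group but CAC at 8 weeks, which had 7, and 12 groups in all. All animals were female and 2 months old. The strain is given as C57BL6/J with each sample but as NCI Ath/nude, an immunodeficient mouse, in the series design, so the strain that all groups share is not known here. The treatment field names cachectic cells for every sample, mock included, so groups were taken from the sample descriptions. The protocol also mentions LLC cells, which are not melanoma. The labels name neither the melanoma lines nor a batch, and tie no library to a named animal.

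Cholesterol is built from acetyl-CoA through mevalonate, isoprenoid units, squalene and a chain of sterol intermediates. The transcription factor SREBP2, encoded by Srebf2, turns on most enzymes of that chain when sterol is low in the endoplasmic reticulum, and SREBP1, encoded by Srebf1, mainly turns on fatty acid synthesis. SCAP escorts both factors to the Golgi for activation, and the INSIG proteins hold them back. The brain makes its own cholesterol because plasma lipoproteins do not cross the blood-brain barrier, and myelin, made by oligodendrocytes, holds most of it.

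The proximal promoters of 3 members carry a match to the sterol regulatory element core, the short sequence that SREBP proteins bind. These 3 are shown because no other member whose promoter could be searched had this match. All 3 moved in cachexia, but the match did not set them apart. Idi1, Cyp51, Nsdhl, Ebp, Sc5d, Dhcr7, Lbr, Srebf1, Insig2, Acaca and Fads2 moved as well, with searched promoters that lack it. A link between the match and the movement was not tested. Windows of 300 bases, with 250 before and 50 from the annotated start onward, were taken from RefSeq (GRCm38.p6) and read 5′ to 3′ on the gene's strand. Capitals mark TCACNCCA, the sterol element core, with the base that completes the longer TCACNCCAC where present, and CCAAT, the box bound by NF-Y, a partner of SREBP, which reads ATTGG where it lies on the opposite strand. The windows lie at chr13:119690101-119690400 on the plus strand for Hmgcs1, chr8:64733529-64733828 on the minus strand for Msmo1 and chr15:82147019-82147318 on the plus strand for Srebf2. The window of Nsdhl, at chrX:72918271-72918570 on the plus strand, has no TCACNCCA and 4 CCAAT matches.
Hmgcs1: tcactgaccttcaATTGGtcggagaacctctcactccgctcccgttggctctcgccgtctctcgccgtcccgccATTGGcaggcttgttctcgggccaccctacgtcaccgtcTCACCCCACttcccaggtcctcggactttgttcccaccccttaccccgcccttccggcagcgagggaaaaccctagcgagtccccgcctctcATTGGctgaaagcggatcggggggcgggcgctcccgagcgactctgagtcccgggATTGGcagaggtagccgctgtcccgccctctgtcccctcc
Msmo1: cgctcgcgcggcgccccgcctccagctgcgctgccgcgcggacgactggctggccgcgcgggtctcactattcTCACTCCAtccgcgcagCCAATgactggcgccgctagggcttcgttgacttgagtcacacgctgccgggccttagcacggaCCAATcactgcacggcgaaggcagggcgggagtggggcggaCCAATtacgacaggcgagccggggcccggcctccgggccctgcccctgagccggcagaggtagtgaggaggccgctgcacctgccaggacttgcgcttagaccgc
Srebf2: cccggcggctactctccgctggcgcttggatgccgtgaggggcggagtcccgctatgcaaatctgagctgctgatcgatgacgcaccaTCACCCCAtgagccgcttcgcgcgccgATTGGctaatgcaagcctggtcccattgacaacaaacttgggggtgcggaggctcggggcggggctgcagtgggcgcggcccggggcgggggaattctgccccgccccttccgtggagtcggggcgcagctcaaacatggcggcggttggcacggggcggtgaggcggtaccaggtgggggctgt
Nsdhl: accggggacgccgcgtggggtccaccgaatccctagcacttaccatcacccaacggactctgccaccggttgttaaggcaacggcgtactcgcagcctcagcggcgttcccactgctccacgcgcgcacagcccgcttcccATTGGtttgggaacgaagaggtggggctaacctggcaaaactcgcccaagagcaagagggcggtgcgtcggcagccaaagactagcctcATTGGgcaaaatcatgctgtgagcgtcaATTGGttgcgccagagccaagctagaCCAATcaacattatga

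A window was given for 27 of the 34 members. Fdps, Fdft1, Sqle, Stard4, Scd1, Scd2 and Fads1 had none and could not be searched. The core TCACNCCA was found on either strand in 3 of these 27, which is 11.1%, against 4.97% of all 27025 genes with a window. The longer form TCACNCCAC, which contains it, was found in Hmgcs1 alone among the 27 (3.7%), against 1.44% of all genes. CCAAT was present in 22 of the 27 (81.5%), against 41.1% of all genes, and the GC box GGGCGG in 22 of the 27 (81.5%), against 38.2%. The E-box CACGTG was present in 5 of the 27 (18.5%), against 8.09%. The shares of all genes include genes that were not tested here, so they are no background of expressed genes. Such matches describe the letters in these windows and do not show that a factor was bound.

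Values were TPM, in which every library sums to 1e+06, so the sequencing depth of a library is unknown. Mitochondrially encoded transcripts took 17.14% to 22.19% of the TPM of a library, and no pair of libraries held identical values. The 7 granule cell markers summed to 4648 ± 268 TPM in CAC, 4759 ± 215 TPM in NCAC and 4610 ± 358 TPM in mock at 8 weeks, with the 7 Purkinje cell markers at 5483 ± 237 TPM in CAC, 5361 ± 89.6 TPM in NCAC and 5369 ± 313 TPM in mock (SD, n = 7, 5 and 5), so the defining neurons of the labelled tissue were present. Ttr, a choroid plexus transcript, ranged over the libraries from 4.34 to 6863 TPM. Among the members Scd2, a stearoyl-CoA desaturase, was the most abundant, with a mean of 1136 TPM over the 62 libraries, followed by Fads1 at 190 TPM, Scd1 at 148 TPM, Fads2 at 146 TPM and Hmgcs1 at 135 TPM. Hsd17b7, a sterol ketoreductase, was the lowest at 12.6 TPM, so all members stood well above the limit of 1 TPM.

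The main question was how the pathway in mice with cachectic melanoma compared with that in mock-injected mice at 8 weeks. In CAC 13 of the 34 members fell and 4 rose (limma on log2(TPM + 1), Benjamini-Hochberg adjusted p under 0.05 over all 14399 symbols). Among the 20 mevalonate and sterol enzymes 10 fell and 1 rose, and the others were not called. Over all symbols tested 7.34% were called lower and 13.4% higher in this comparison. The median log2 fold change of the members was -0.10, against 0.02 over all symbols. By role, 8 of the 12 squalene and sterol enzymes fell and 1 rose (median -0.33), 2 of the 8 mevalonate enzymes fell (median -0.10), 1 of the 6 regulators fell and 2 rose (median -0.03), and 2 of the 8 lipogenic genes fell and 1 rose (median -0.06). The called changes were at most 0.54 in size on the log2 scale. Of all calls 64.6% were higher, against 49.4% with median-of-ratios scaling, under which 13 members were lower and 3 higher. In whole tissue, fewer cells of a type and less RNA per cell cannot be told apart.

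**Figure D1:**
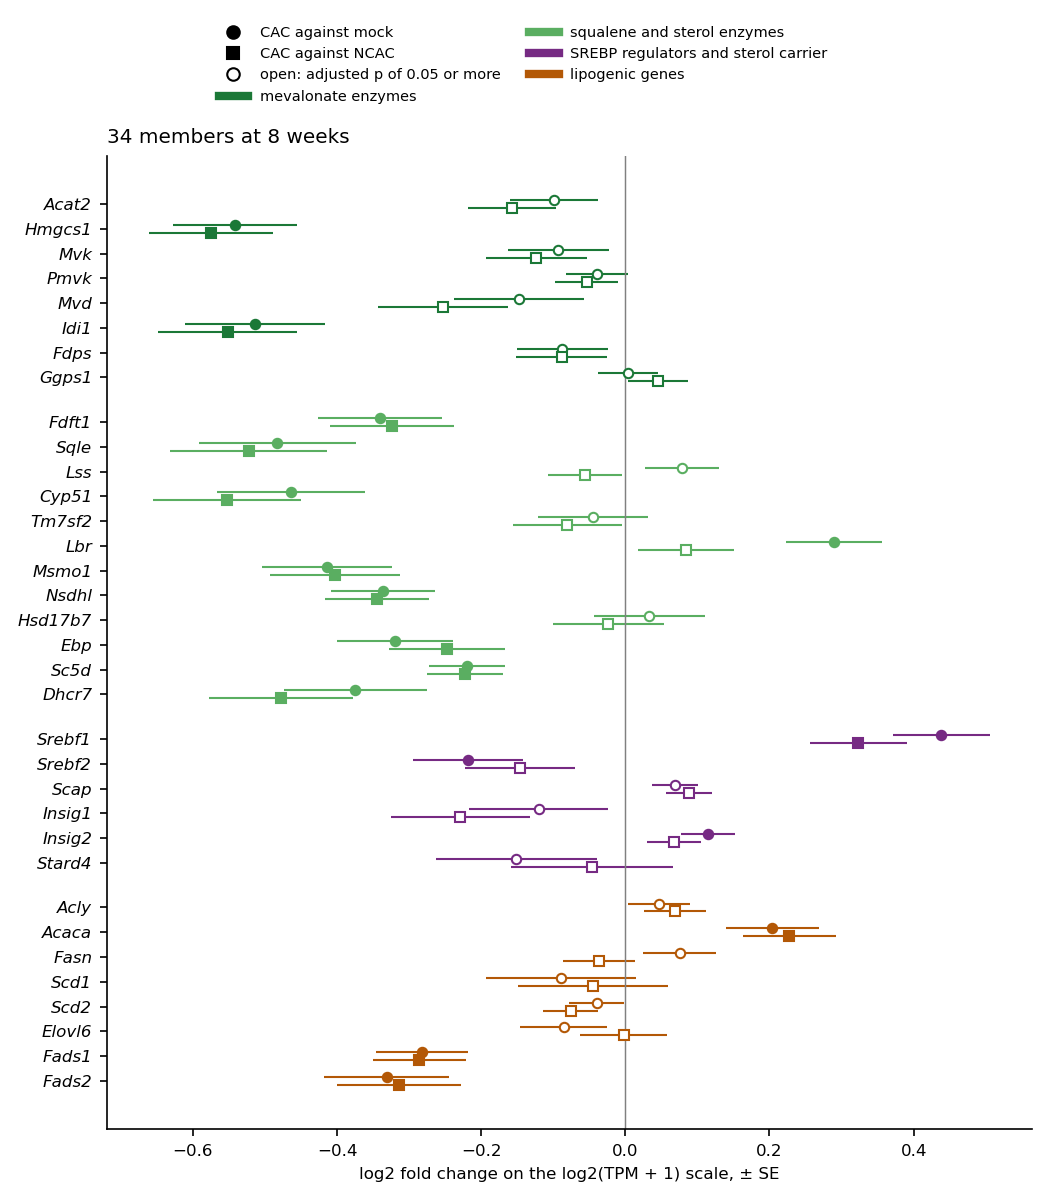
Log2 fold changes at 8 weeks (x axis, log2(TPM + 1) scale, bars are SE) of the 34 members grouped by role, in CAC against mock (circles) and CAC against NCAC (squares), with filled symbols for adjusted p under 0.05. Most filled symbols lie left of 0 among the sterol enzymes, where 8 of 12 fell in each comparison, and Srebf1 and Acaca lie right of 0 in both.

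At the head of the mevalonate pathway, Hmgcs1 encodes the cytosolic HMG-CoA synthase (chromosome 13, 119690379 to 119708260, plus strand, GRCm38), whose window above holds a match to the longer sterol element and 4 CCAAT matches. Its level in the 7 CAC libraries at 8 weeks had a minimum of 79.2, a median of 90.9 and a maximum of 121 TPM, against 158, 144, 142, 119 and 120 TPM in the 5 mock libraries. The highest CAC library reached just past the 2 lowest mock libraries, and the other 6 CAC libraries lay below every mock library. Means were 93.6 ± 13 TPM in CAC (SD, n = 7) and 136 ± 16.7 TPM in mock (SD, n = 5), a log2 fold change of -0.54 ± 0.0858 (SE; limma adjusted p = 1.3e-05). Idi1, the isomerase that balances the 2 isoprenoid building blocks, had a minimum of 29, a median of 33 and a maximum of 42.4 TPM in CAC, against 58.4, 51.1, 50.8, 39.9 and 43.9 TPM in mock. It fell by 0.51 on the log2 scale (SE 0.0969, limma adjusted p = 0.000143), with 1 CAC library inside the mock range.

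The other 6 mevalonate enzymes did not pass the test at 8 weeks. Mvd, the decarboxylase that makes isopentenyl diphosphate, stood at 25.5 ± 2.66 TPM in CAC and 28.3 ± 3.25 TPM in mock (adjusted p = 0.246 by limma). Acat2, the cytosolic thiolase, was at 36.3 ± 2.04 TPM in CAC and 39.1 ± 5.07 TPM in mock, and Fdps, which makes farnesyl diphosphate, at 45.4 ± 5.01 TPM in CAC and 48.3 ± 4.88 TPM in mock (SD, n = 7 and 5). The kinases Mvk and Pmvk and Ggps1, which makes geranylgeranyl diphosphate, had log2 fold changes of -0.09, -0.04 and 0.00.

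Among the enzymes that commit the pathway to sterols, Fdft1 (squalene synthase), Sqle (squalene epoxidase) and Cyp51 (lanosterol 14-alpha-demethylase) fell. Cyp51 (chromosome 5, 4081145 to 4104746, minus strand, GRCm38) had a minimum of 22.1, a median of 23.1 and a maximum of 28.3 TPM in the CAC libraries, against 44.9, 30.6, 37, 28.4 and 30.6 TPM in mock. Its groups did not overlap, though the highest CAC and the lowest mock library nearly touched, and the means were 24.3 ± 2.35 TPM in CAC and 34.3 ± 6.74 TPM in mock (log2 fold change -0.46 ± 0.102, SE; limma adjusted p = 0.00083). Sqle averaged 13.4 ± 1.81 TPM in CAC and 19.3 ± 3.74 TPM in mock (log2 fold change -0.48, limma adjusted p = 0.00104). Its CAC libraries spanned 11 to 16.8 TPM and its mock libraries 15.1 to 23.4 TPM, so the groups overlapped. Fdft1 averaged 32.9 ± 2.69 TPM in CAC and 42.2 ± 6.21 TPM in mock (log2 fold change -0.34, limma adjusted p = 0.0033). Lss, the cyclase between Sqle and Cyp51 in the pathway, did not pass the test, at 15.1 ± 1.26 TPM in CAC and 14.3 ± 1.11 TPM in mock (adjusted p = 0.284 by limma).

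Of the 8 enzymes that trim and reshape the sterol ring after Cyp51, 5 fell, 1 rose and 2 did not pass. Nsdhl and Msmo1, which remove the methyl groups at carbon 4, fell. Nsdhl was at 13.7, 14.9, 14.3, 15.3, 12.7, 13.2 and 12.1 TPM in CAC replicates 1 to 7, against 20, 17.1, 18.5, 14.2 and 18.5 TPM in mock (log2 fold change -0.34 ± 0.0722, SE; limma adjusted p = 0.000617). A low mock library, replicate 4, lay within the CAC range, and the other 4 mock libraries lay above it. Msmo1 averaged 15 ± 1.71 TPM in CAC and 20.4 ± 3.13 TPM in mock (log2 fold change -0.41, limma adjusted p = 0.000737). Ebp, the sterol isomerase, averaged 33 ± 5.61 TPM in CAC and 41 ± 2.34 TPM in mock (log2 fold change -0.32, limma adjusted p = 0.00303). The late enzymes Sc5d, a desaturase, and Dhcr7, the 7-dehydrocholesterol reductase, fell by 0.22 (limma adjusted p = 0.00198) and 0.37 (limma adjusted p = 0.00498) on the log2 scale. Dhcr7 ranged from 13.8 to 22.3 TPM in CAC and from 19.9 to 27.8 TPM in mock. Hsd17b7 and Tm7sf2, a C14 sterol reductase, had log2 fold changes of 0.03 and -0.04 and did not pass.

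Lbr, which encodes the lamin B receptor of the inner nuclear membrane and has the same C14 reductase activity as Tm7sf2, was the 1 sterol enzyme that rose. It was at 17.3, 17.6, 15.8, 18.5, 16.3, 21.6 and 16.6 TPM in CAC replicates 1 to 7, against 14.7, 15.1, 14.4, 12.9 and 14.1 TPM in mock. Every CAC library lay above every mock library (log2 fold change 0.29 ± 0.0667, SE; limma adjusted p = 0.00129). In NCAC at 8 weeks Lbr averaged 16.6 ± 1.57 TPM, and CAC against NCAC did not pass (log2 fold change 0.08, limma adjusted p = 0.461).

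**Figure D2:**
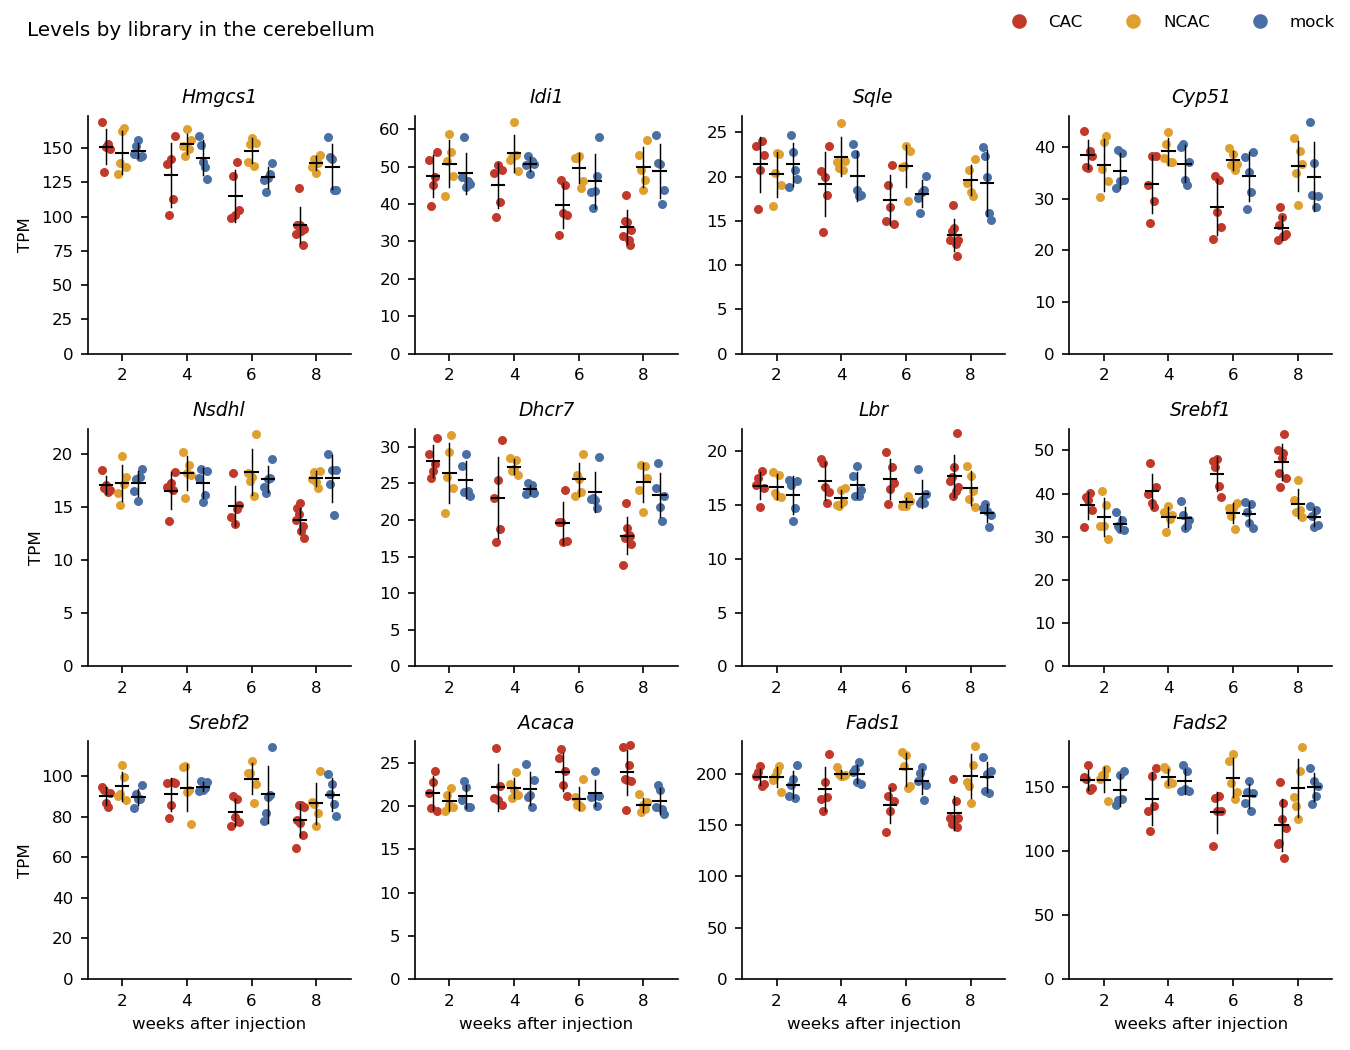
TPM of 12 members in every library (y axis from 0), by weeks after injection (x axis), with CAC, NCAC and mock side by side. At 8 weeks the CAC libraries of Hmgcs1 lie between 79.2 and 121 TPM and the mock libraries between 119 and 158, while those of Srebf1 lie between 41.6 and 53.8 TPM in CAC, above all mock libraries.

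Of the genes for the SREBP factors, Srebf1 rose at 8 weeks, while Srebf2 was called lower with less certainty. Srebf1 (chromosome 11, 60199089 to 60222581, minus strand, GRCm38) was at 50.1, 44.7, 41.6, 48.3, 49.4, 53.8 and 43.7 TPM in CAC replicates 1 to 7, against 37, 34.9, 32.2, 36.1 and 32.8 TPM in mock. The groups did not overlap, and the log2 fold change was 0.44 ± 0.0674 (SE; limma adjusted p = 8.18e-06). Srebf2 had a minimum of 64.3, a median of 78.3 and a maximum of 85.6 TPM in CAC, against 101, 91.1, 95.9, 86 and 80.3 TPM in mock. It fell by 0.22 on the log2 scale (SE 0.0759, limma adjusted p = 0.0331), with overlapping groups, and this call was lost in 5 of the 12 fits that left out 1 library (log2 fold changes of -0.26 to -0.17; adjusted p up to 0.122). The TPM ratio of Srebf1 to Srebf2 was 0.616 ± 0.113 in CAC, 0.442 ± 0.085 in NCAC and 0.383 ± 0.0335 in mock at 8 weeks (SD, n = 7, 5 and 5), and 0.415 ± 0.051 in CAC, 0.365 ± 0.0511 in NCAC and 0.37 ± 0.0352 in mock at 2 weeks (SD, n = 5 each). No test was run on the ratio.

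Of the other regulators, Insig2 rose slightly, at 59.9 ± 2.88 TPM in CAC and 55.3 ± 3.15 TPM in mock (log2 fold change 0.11, limma adjusted p = 0.0223). That call was lost with median-of-ratios scaling (adjusted p = 0.102) or quantile normalization (0.155), without mitochondrially encoded genes (0.144), with the replicate block (0.0768), in a fit on the compared groups alone (0.106) and with the mean level of oligodendrocyte markers as a covariate (0.182). It was also lost in 4 of the 12 fits that left out 1 library, when CAC replicate 2 was dropped, or 1 of mock libraries 2, 4 and 5 (adjusted p up to 0.0765). Insig1, a target as well as a brake of SREBP, was at 56.5 ± 7.16 TPM in CAC and 61.7 ± 9.48 TPM in mock and did not pass (adjusted p = 0.402 by limma). Scap stood at 60.4 ± 3.33 TPM in CAC and 57.5 ± 1.39 TPM in mock, and Stard4, which carries sterol between membranes, at 48.6 ± 7.38 TPM in CAC and 53.6 ± 3.82 TPM in mock, and neither passed (adjusted p = 0.117 and 0.354 by limma).

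Of the 8 lipogenic genes 2 fell and 1 rose, where 7.34% of all symbols were called lower and 13.4% higher. Fads1 and Fads2, the desaturases of polyunsaturated fatty acids, which are neighbours on chromosome 19, fell. Fads1 had a minimum of 149, a median of 157 and a maximum of 195 TPM in CAC, against 216, 183, 200, 182 and 203 TPM in mock (log2 fold change -0.28 ± 0.0641, SE; limma adjusted p = 0.00111). Fads2 had a minimum of 94.8, a median of 118 and a maximum of 154 TPM in CAC, against 165, 137, 154, 142 and 151 TPM in mock (log2 fold change -0.33 ± 0.086, SE; limma adjusted p = 0.00412). In both genes the highest CAC library was replicate 3, which lay inside the mock range. Acaca, acetyl-CoA carboxylase 1, rose, with 23.9 ± 2.6 TPM in CAC and 20.6 ± 1.48 TPM in mock (log2 fold change 0.20, limma adjusted p = 0.0188). Its call was lost in 5 of the 12 fits that left out 1 library, when 1 of CAC libraries 1 and 6 or of mock libraries 1, 4 and 5 was dropped (adjusted p up to 0.0622). It was also lost with quantile normalization (adjusted p = 0.0505), without mitochondrially encoded genes (0.0564), with the replicate block (0.0799), in a fit on the compared groups alone (0.0895) and with the oligodendrocyte covariate (0.226).

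The other 5 lipogenic genes did not pass the test. Fasn, fatty acid synthase, was at 82.7 ± 4.45 TPM in CAC and 78.4 ± 3.41 TPM in mock, and Acly, which supplies cytosolic acetyl-CoA, at 125 ± 4.04 TPM in CAC and 121 ± 6.09 TPM in mock. The desaturases Scd1 and Scd2 and the elongase Elovl6 had log2 fold changes of -0.09, -0.04 and -0.09, with adjusted p of 0.587, 0.488 and 0.332 by limma. With quantile normalization Scd2 was called lower (log2 fold change -0.106, limma adjusted p = 0.0334). Scd1 and Scd2 are close copies of each other, and how reads shared between them were assigned is not stated, so their split is uncertain.

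A different control for the tumour itself is the melanoma that does not cause cachexia. CAC and NCAC mice received different melanoma cells, so cachexia and other differences between those cells cannot be told apart. In CAC against NCAC at 8 weeks 12 of the 34 members fell and 2 rose, against 4.01% lower and 7.76% higher over all symbols. The median log2 fold change was -0.11 for the members and 0.02 over all symbols. This comparison shares its CAC libraries with CAC against mock. Again 8 of the 12 sterol enzymes fell (median -0.29) and 2 of the 8 mevalonate enzymes fell (median -0.14). Of the regulators 0 fell and 1 rose, and of the lipogenic genes 2 fell and 1 rose.

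Hmgcs1 was at 136, 142, 132, 139 and 145 TPM in the NCAC libraries of 8 weeks, all above the CAC maximum of 121 TPM (log2 fold change of CAC against NCAC -0.58, limma adjusted p = 9.13e-06). Cyp51, at 24.3 ± 2.35 TPM in CAC and 36.3 ± 4.89 TPM in NCAC, had a log2 fold change of -0.55 (limma adjusted p = 0.000256), and Idi1, at 33.8 ± 4.47 TPM in CAC and 50 ± 5.38 TPM in NCAC, one of -0.55 (limma adjusted p = 0.000129). Dhcr7 had a log2 fold change of -0.48, Sqle of -0.52 and Fads1 of -0.29, all past the threshold. Srebf1 rose here too, at 47.4 ± 4.24 TPM in CAC and 37.6 ± 3.37 TPM in NCAC (log2 fold change 0.32, limma adjusted p = 0.000912), with NCAC replicate 3 at 43.1 TPM inside the CAC range. Srebf2 did not pass, with a log2 fold change of -0.15 (limma adjusted p = 0.217).

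Groups without overlap give a simpler view of the same libraries. In CAC against NCAC at 8 weeks Hmgcs1, Idi1, Fdft1, Sqle, Cyp51 and Nsdhl had every CAC library below every NCAC library, 6 of the 34 members, against 0.653% of all symbols. No member lay wholly above, against 1.94% of all symbols. In CAC against mock only Cyp51 lay wholly below (1.25% of all symbols did), and Lbr and Srebf1 lay wholly above (3.24% of all symbols did).

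NCAC against mock tests the tumour without cachexia. Limma called 0 of the 34 members in any week, with 3, 0, 5 and 3 members at an unadjusted p under 0.05 at 2, 4, 6 and 8 weeks. Over all symbols 0.0139% were called at 2 weeks and 0% at 4, 6 and 8 weeks. At 8 weeks Hmgcs1 averaged 139 ± 5.2 TPM in NCAC and 136 ± 16.7 TPM in mock, and Srebf1 37.6 ± 3.37 TPM in NCAC and 34.6 ± 2.07 TPM in mock (SD, n = 5 each). The members at p under 0.05 at 8 weeks were Lss, Lbr and Fasn, all higher in NCAC, with log2 fold changes of 0.13, 0.21 and 0.11.

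Each earlier week was compared with its own libraries. A call at 1 week and not at another does not by itself date the difference. At 2 and 4 weeks limma called 0 of the 34 members in CAC against mock, with 3 and 1 at an unadjusted p under 0.05. Limma also called 0 of the 34 in CAC against NCAC at these weeks, with 1 and 5 at such a p. Over all symbols 0% were called in either comparison at 2 weeks and 0.00694% in either at 4 weeks. At 2 weeks Fasn, with 89.3, 87.4, 82.8, 82.3 and 85.3 TPM in CAC against 79.6, 71.8, 75.2, 79.9 and 81.4 TPM in mock, did not pass the adjusted test (log2 fold change 0.14). At 4 weeks Srebf1 was the 1 member at p under 0.05 against mock (log2 fold change 0.23, limma adjusted p = 0.47).

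At 6 weeks CAC and NCAC differed in 11 members, 9 lower and 2 higher in CAC, where 1.99% and 7.47% of all symbols were called lower and higher. The medians were -0.11 for the members and 0.04 over all symbols. Against mock at 6 weeks, the 20 mevalonate and sterol enzymes had a median log2 fold change of 0.095 in NCAC and -0.056 in CAC. Over all symbols those medians were -0.015 in NCAC and 0.024 in CAC. Hmgcs1 averaged 115 ± 18.7 TPM in CAC, against 148 ± 9.27 TPM in NCAC (SD, n = 5 each, log2 fold change -0.37, limma adjusted p = 0.0103). Cyp51 was at 22.2, 34.4, 27.5, 33.6 and 24.5 TPM in CAC, against 39.9, 36.5, 38.7, 35.5 and 36.7 TPM in NCAC (log2 fold change -0.40, limma adjusted p = 0.0181). Idi1, Msmo1, Nsdhl, Dhcr7, Srebf2, Fads1 and Fads2 were also lower in CAC than in NCAC, and Srebf1 (log2 fold change 0.32) and Insig2 (0.14) were higher. This count rests on single libraries: it was 1 without CAC replicate 1, 5 without CAC replicate 3, CAC replicate 5 or NCAC replicate 5, 6 without NCAC replicate 2 and 7 without NCAC replicate 1 or 3, and 3 in a fit on the compared groups alone.

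Against mock at 6 weeks 1 of the 34 members was called, where 0.313% of all symbols were called lower and 1.41% higher. Srebf1 was at 47.6, 46.2, 48, 41.8 and 39.2 TPM in CAC, against 38.1, 35.7, 33.2, 37.7 and 32 TPM in mock (log2 fold change 0.33, limma adjusted p = 0.0129). This call was lost without CAC replicate 1, mock replicate 3 or mock replicate 5 and in a fit on the compared groups alone, and the count was 3 without CAC replicate 4 and 2 without CAC replicate 5. Ebp, with 32.1, 36.6, 35.2, 33.7 and 37 TPM in CAC against 40.1, 39, 47.5, 43.4 and 44.8 TPM in mock, missed the threshold (limma adjusted p = 0.0661). Hmgcs1 at 6 weeks averaged 148 ± 9.27 TPM in NCAC and 129 ± 7.66 TPM in mock, a difference that did not pass (adjusted p = 0.588 by limma).

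**Figure D3:**
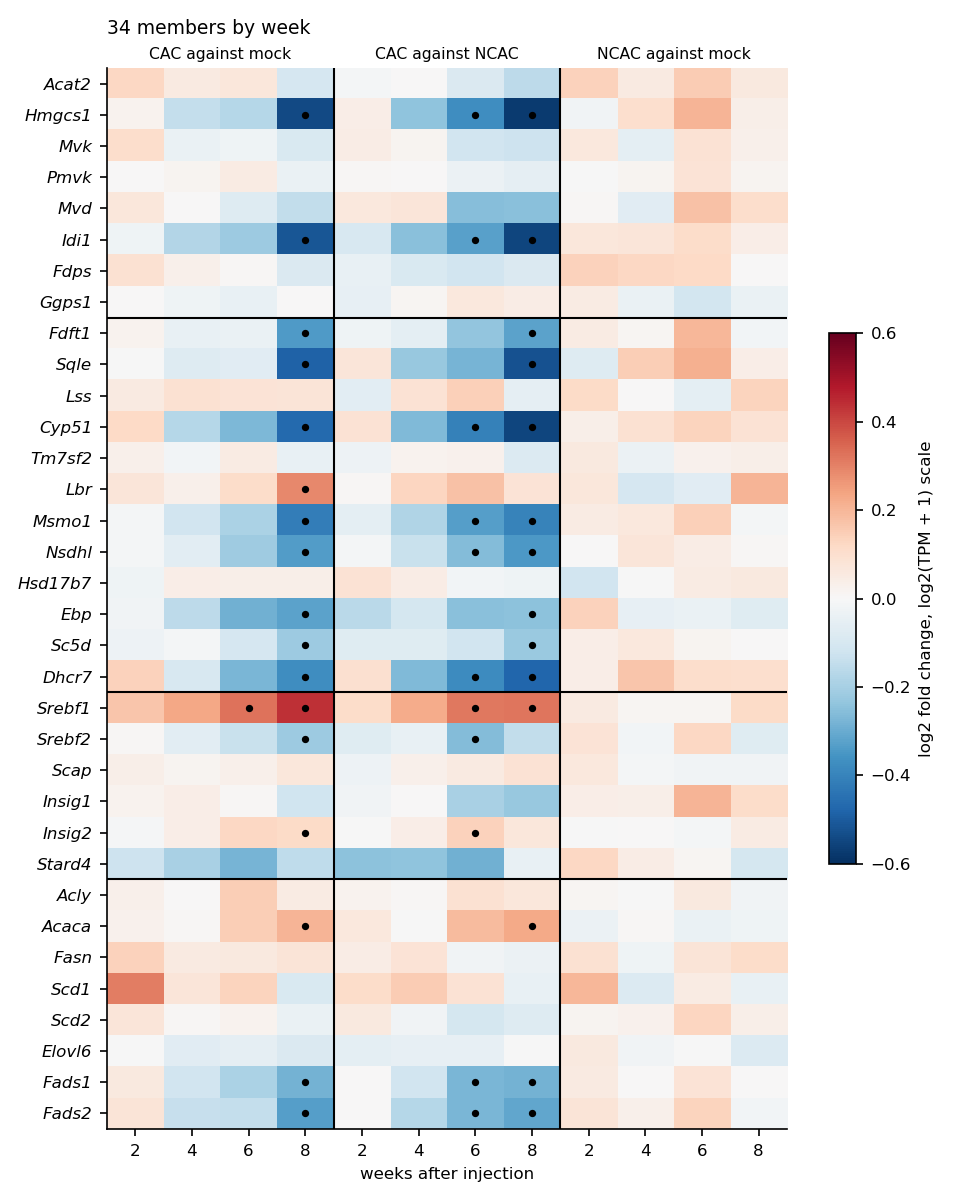
Log2 fold changes of the 34 members (rows) at 2, 4, 6 and 8 weeks (columns) in CAC against mock, CAC against NCAC and NCAC against mock, coloured by size, with a dot where the adjusted p was under 0.05. Marks appear at 6 and 8 weeks in the comparisons of CAC, and 0 of 34 members are marked in NCAC against mock.

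Within CAC, 17 of the 34 members fell and 1 rose at 8 weeks against 2 weeks, where 9.62% of all symbols were called lower and 8.26% higher. In the same comparison 11 of 14 oligodendrocyte markers fell (median -0.39) and 5 of 8 precursor markers fell (median -0.41), and their part in the result was not tested. With the oligodendrocyte covariate limma called 0 of the 34 members, and 60 symbols lower and 50 higher of the 14399. Between 8 and 2 weeks in mock, limma called 0 of the 14 oligodendrocyte markers, with 7 at an unadjusted p under 0.05 and all 14 negative (median -0.18). Hmgcs1 averaged 151 ± 12.9 TPM at 2 weeks, 131 ± 23.3 at 4, 115 ± 18.7 at 6 and 93.6 ± 13 at 8 weeks in CAC (8 against 2 weeks, log2 fold change -0.69, limma adjusted p = 1.35e-07). Dhcr7 averaged 28 ± 2.17, 23 ± 5.51, 19.5 ± 2.87 and 17.9 ± 2.56 TPM at 2, 4, 6 and 8 weeks, and Cyp51 38.6 ± 2.88, 32.8 ± 5.65, 28.5 ± 5.43 and 24.3 ± 2.35 TPM. The 1 riser was Srebf1, with 37.3 ± 3.16, 40.6 ± 4.02, 44.6 ± 3.87 and 47.4 ± 4.24 TPM. In mock, limma called 0 of the 34 members between 8 and 2 weeks, with 2 at an unadjusted p under 0.05, where 0% of all symbols were called. Hmgcs1 in mock averaged 148 ± 5.52, 143 ± 12.7, 129 ± 7.66 and 136 ± 16.7 TPM over the weeks.

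Tested directly, the difference between CAC and mock changed between 2 and 8 weeks for 3 members, all downward, where 0.59% of all symbols were called lower and 0.958% higher. These were Hmgcs1 (change -0.56 on the log2 scale, limma adjusted p = 0.0177), Cyp51 (-0.58, adjusted p = 0.0365) and Fads1 (-0.34, adjusted p = 0.0471). The count rests on single libraries. Among those of 8 weeks it was 0 without mock replicate 1, 1 without CAC replicate 1, 2 or 6 or mock replicate 3, 6 without mock replicate 4 and 8 without CAC replicate 3. Among those of 2 weeks it was 1 without CAC replicate 1, 4 or 5 or mock replicate 1, and 5 without CAC replicate 2. Between 6 and 8 weeks the difference changed for 0 of the 34 members by limma, with 4 at an unadjusted p under 0.05, and for 0% of all symbols. The rise of Srebf1 was not shown to change between 2 and 8 weeks (change 0.27, limma adjusted p = 0.141).

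Genes that feed or branch from the pathway were looked at in CAC against mock at 8 weeks, where 7.34% of all symbols were called lower and 13.4% higher. Of 21 tested genes of sterol and lipid supply, 3 fell and 5 rose. Me1, the malic enzyme that supplies NADPH, was lower, at 52.8 ± 4.4 TPM in CAC and 62.4 ± 1.53 TPM in mock, while Acsl3, an acyl-CoA synthetase, was higher, at 114 ± 16.4 TPM in CAC and 91.4 ± 3.01 TPM in mock (adjusted p = 0.000117 and 0.000363 by limma). Cyb5r3, a cytochrome b5 reductase that supplies electrons to desaturation steps of sterol and fatty acid synthesis, was higher as well, at 62.4 ± 6.67 TPM in CAC and 51.5 ± 3.57 TPM in mock (limma adjusted p = 0.00152). Of 11 genes of the isoprenoid branch 1 fell, a share near that of all symbols, and it was the prenyltransferase subunit Fnta (log2 fold change -0.15, limma adjusted p = 0.00449). Of 9 myelin lipid enzymes 4 fell and 0 rose (median -0.15), led by Ugt8a, which makes galactosylceramide, at 26.2 ± 9.13 TPM in CAC and 49 ± 8.62 TPM in mock (log2 fold change -0.93, limma adjusted p = 2.54e-05).

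Oligodendrocyte markers were lower in the same libraries. Of 14 markers 9 fell and 0 rose in CAC against mock at 8 weeks (median -0.29), and of 8 precursor markers 4 fell and 0 rose (median -0.42), where 7.34% of all symbols were called lower and 13.4% higher. None of the 14 was at 0. Mag, the myelin-associated glycoprotein, averaged 98 ± 14.8 TPM in CAC and 139 ± 20.4 TPM in mock (log2 fold change -0.50, limma adjusted p = 0.000181). The 14 markers summed to 2304 to 2877 TPM in CAC, 2866 to 3227 TPM in NCAC and 2722 to 3687 TPM in mock. In CAC against NCAC 7 of the 14 fell at 8 weeks, where 4.01% of all symbols were called lower, and in NCAC against mock at 8 weeks limma called 0 (median -0.05, with 0 at an unadjusted p under 0.05). At 6 weeks 5 of the 14 fell in CAC against NCAC, where 1.99% of all symbols were called lower. At 6 weeks limma called 0 of the 14 in CAC against mock (median -0.03, 4 of them with an unadjusted p under 0.05), and 0 in NCAC against mock, where all 14 were positive (median 0.23, with 7 at an unadjusted p under 0.05). The 20 cholesterol enzymes summed to 586 to 688 TPM in CAC, 703 to 793 TPM in NCAC and 669 to 828 TPM in mock at 8 weeks, so that CAC lay below NCAC without overlap and overlapped with mock.

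For other cell types, the counts in CAC against mock at 8 weeks are read against the same 7.34% lower and 13.4% higher over all symbols. Limma called 0 of 7 granule cell, 0 of 8 choroid plexus and 0 of 4 red blood cell markers. Of 7 Purkinje cell markers 1 fell and 1 rose, of 10 astrocyte and Bergmann glia markers 2 fell and 2 rose, and of 6 endothelial markers 1 fell and 2 rose. Of 7 microglial markers 3 fell and all 7 were negative (median -0.34). In NCAC against mock at 8 weeks all 7 were negative as well (median -0.31). Limma called 0 of them there, while 4 had an unadjusted p under 0.05. In CAC against NCAC at 8 weeks limma called 0 (median -0.07, with 1 at an unadjusted p under 0.05). The 7 markers summed to 173 to 224 TPM in CAC, 154 to 184 TPM in NCAC and 176 to 320 TPM in mock at 8 weeks, and to 165 to 204 TPM in mock at 2 weeks. Between 8 and 2 weeks in mock all 7 were positive (median 0.26), with 0 called by limma and an unadjusted p under 0.05 for 4.

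**Figure D4:**
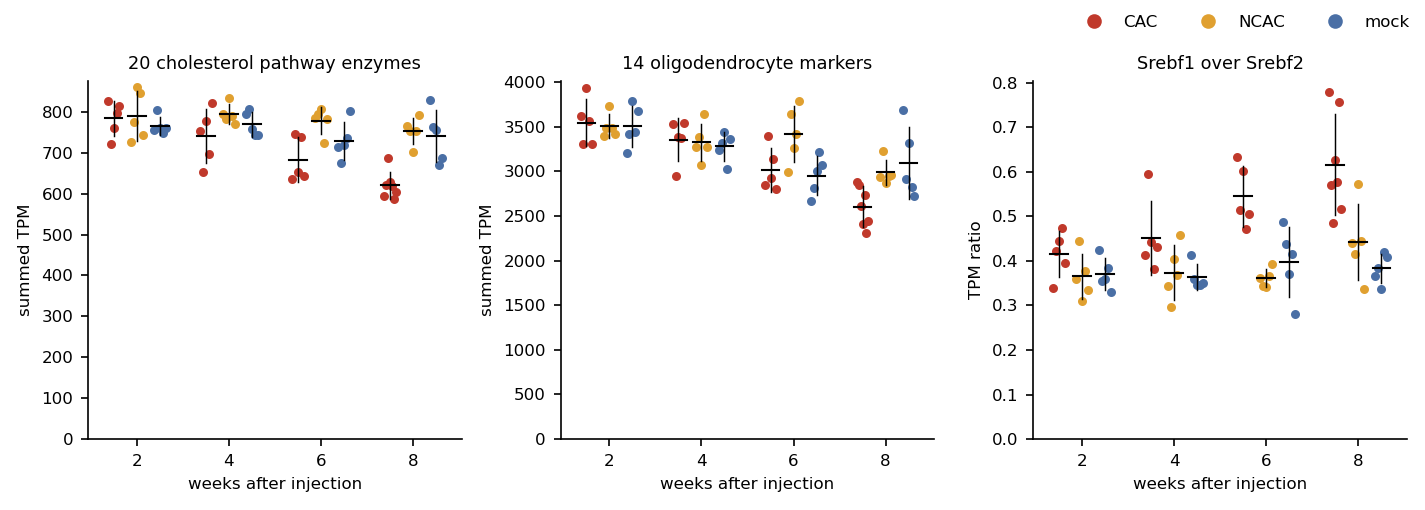
Summed TPM of the 20 cholesterol enzymes, summed TPM of 14 oligodendrocyte markers, and the TPM ratio of Srebf1 to Srebf2 in every library (y axes from 0), by weeks after injection and treatment. At 8 weeks the CAC libraries lie at 586 to 688 TPM for the enzymes and 2304 to 2877 TPM for the markers, and their Srebf1 to Srebf2 ratio averages 0.616, against 0.383 in mock.

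With the mean level of the 14 oligodendrocyte markers as a covariate in the fit, most calls were lost. In CAC against mock at 8 weeks 0 members were lower and 1 was higher, where 0.208% of all symbols were lower and 1.01% higher in that fit. The median of the sterol enzymes went to -0.13 with the covariate, against -0.33 without it. Hmgcs1 had a log2 fold change of -0.24 with the covariate (adjusted p = 0.0703 by limma), Idi1 of -0.28, Cyp51 of -0.21 and Sqle of -0.15. Ebp and Acaca kept nearly their full size, at -0.29 and 0.19, without passing. Srebf1 remained higher, with a log2 fold change of 0.37 (SE 0.0796, limma adjusted p = 0.00944).

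Against NCAC at 8 weeks the covariate left 1 member lower, Hmgcs1 (log2 fold change -0.31, limma adjusted p = 0.00982), and 0 higher, where 0.319% and 1.22% of all symbols were lower and higher. There Idi1 lay at the threshold (log2 fold change -0.35, limma adjusted p = 0.0502), and Srebf1 had 0.26 (adjusted p = 0.0628). At 6 weeks against NCAC 0 of the 34 members were called by limma with the covariate, where 0% of all symbols were lower and 0.0208% higher. The marker level itself differed between the groups, so a fit with it also takes out part of the difference between treatments. Whether the markers and the members fell in the same cells was not tested.

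**Figure D5:**
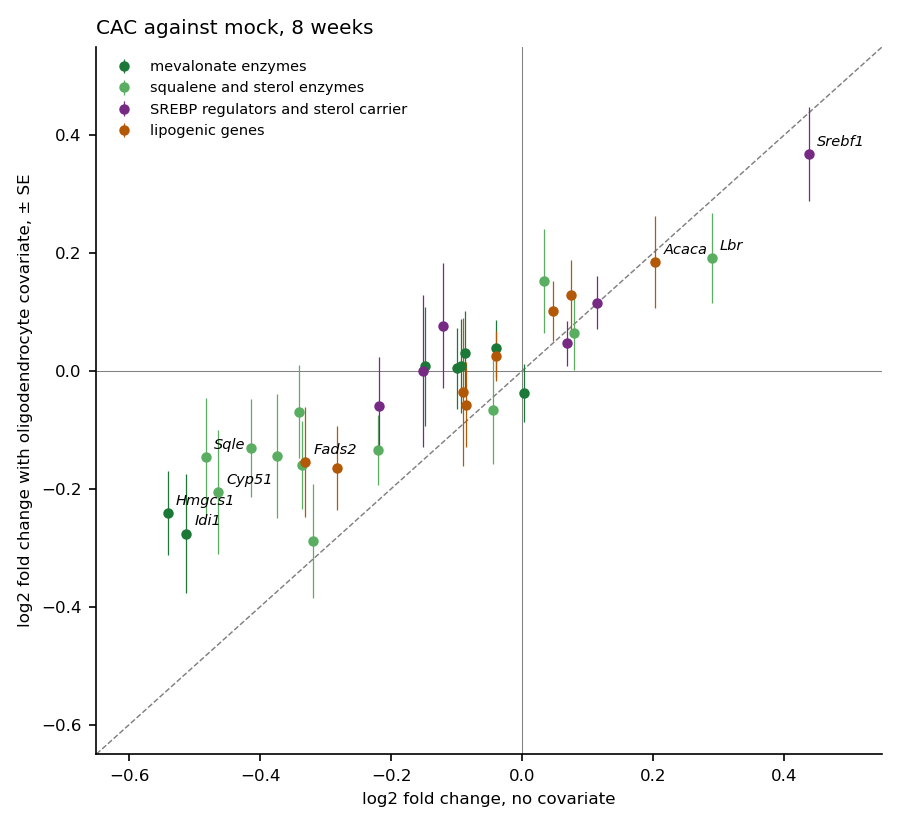
Log2 fold changes of the 34 members in CAC against mock at 8 weeks without (x axis) and with (y axis, bars are SE) the oligodendrocyte marker covariate, coloured by role. Most sterol enzymes move toward 0 on the y axis, as Hmgcs1 does (-0.54 without and -0.24 with it), while Srebf1 stays near the diagonal (0.44 and 0.37).

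Some members share exons with other genes in GENCODE M21, on the same build. Hmgcs1, Idi1, Ggps1, Fdft1, Lss, Cyp51, Lbr, Srebf1, Scap and Elovl6 overlap an exon on the opposite strand, among them Fdft1 with Ctsb and Cyp51 with Akap9. Fdps, Tm7sf2, Lbr, Srebf1 and Scd2 overlap an exon on their own strand. The libraries were made with a stranded kit, but whether strand was used in quantification is not stated, so a part of the signal of these members could belong to the overlapping genes. Sqle, Msmo1, Nsdhl, Ebp, Sc5d, Dhcr7, Srebf2, Insig2, Acaca, Fads1 and Fads2, which were also called at 8 weeks, overlap none.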

How the data were processed

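Cerebellum RNA of 62 libraries was used, in 12 groups taken from the sample descriptions. The authors deposited 1 table of TPM per gene symbol. RNA was extracted with Trizol and sequenced from stranded mRNA libraries, per the labels' protocols. The build was mm10, per the submitters' processing notes; the sources used here do not give the aligner, the quantification tool or the annotation. Since TPM fixes the total of each library, depth is unknown, no counting interval is given, and a larger share of 1 gene lowers the rest.

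Tests used log2(TPM + 1) of the 14399 symbols that averaged at least 1 TPM. Fold changes are on that scale, which understates changes of low genes. A single limma fit (limma 3.58.1, R 4.3.3) covered the 12 group means (eBayes with trend, 50 residual degrees of freedom, 16 comparisons), with two-sided p adjusted by Benjamini-Hochberg over all symbols and a threshold of 0.05. The fit was also run on simulated data with known changes. Genes varied independently there, so shifts shared by many genes were not covered. Replicates are described as biological, but no label names an animal, so p-values measure the spread between these libraries.

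The 34 members and all lists were chosen with earlier results of these data known. All members could be named. Values by library are those of the 3 members of each role with the smallest p in CAC against mock at 8 weeks, and of members called in another comparison of treatments. From each other list up to 3 called genes with the smallest p were eligible. A gene eligible by this rule is not reported here by name and stays in the counts. Lbr, Fasn and Ebp by library were added after their values were seen, though Ebp was also covered by the rule for values by library. The settings varied were the pseudocount (0.1), the filter (none, or a mean TPM of at least 5), the scaling (median-of-ratios, quantile normalization, or mitochondrially encoded genes removed) and the model (sample weights, a replicate block, a covariate of choroid plexus or oligodendrocyte markers, or the compared groups fitted alone). Each replicate was also left out in turn. Promoter windows were matched by symbol to RefSeq, and gene positions to GENCODE M21.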

Additional observations from a re-analysis of the deposited data

Results flagged for a closer look

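Among 99 groups of libraries examined for a library that stands apart, 4 had one, and chance flags about 1 in 20 groups. Hmgcs1 in CAC replicate 3 at 8 weeks was at 121 TPM, far above the other 6 CAC libraries. Mvd in CAC replicate 4 at 8 weeks was at 20.14 TPM, far below the others. The mean log2 level of the 12 sterol enzymes was 4.549 in NCAC replicate 4 at 6 weeks, lower than in the other 4 libraries of its group. The mean log2 level of the 6 regulators was 5.714 in NCAC replicate 3 at 8 weeks, again the lowest of its group.

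For 3 members the difference between CAC and mock itself differed between 8 and 2 weeks, by the interaction test in limma. The change on the log2 scale was -0.5635 for Hmgcs1, -0.5835 for Cyp51 and -0.3412 for Fads1.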

How the results depend on the processing

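At 8 weeks the number of members called was stable except under the oligodendrocyte covariate. Against mock it was 17 as reported, 15 to 17 without each replicate in turn and 1 with that covariate. Against NCAC it was 14, 12 to 15 and 1, and in CAC at 8 against 2 weeks 18, 16 to 19 and 0. With a replicate block, which takes CAC replicates 6 and 7 out, the counts at 8 weeks were 14 against mock and 10 against NCAC. Same-numbered libraries had correlated deviations of -0.155 to 0.0755 for CAC and mock at 8 weeks, with 0 of 5 pairs over 0.1. The most pairs over 0.1 were 4 of 5, for CAC and NCAC at 2 weeks (-0.0949 to 0.396). No comparison had all 5 over 0.1, so the numbers were not taken to pair libraries.

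The 6 week counts were less stable. Against mock, 1 member as reported became 2 with median-of-ratios scaling, 2 with quantile normalization, 2 without mitochondrially encoded genes, 3 with sample weights, 0 in a fit on the compared groups alone, and 0 to 3 without each replicate. Against NCAC, 11 became 21 with sample weights, 0 with the oligodendrocyte covariate, 3 in a fit on the compared groups alone, and 1 to 14 without each replicate. For the change between 2 and 8 weeks, 3 became 1 with no filter, 5 with either scaling, 5 without mitochondrially encoded genes, 7 with sample weights, 0 with the replicate block, 0 with the oligodendrocyte covariate, 1 in a fit on the compared groups alone, and 0 to 8 without each replicate. The other counts of 0 stayed at 0. The cause of these moves was not tested.

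Among all calls against mock at 8 weeks 64.6% were higher as reported, 49.4% with median-of-ratios scaling, 47% with quantile normalization and 41.8% once mitochondrially encoded genes were removed; against NCAC these shares were 65.9%, 48.9%, 45.7% and 41.2%. At 6 weeks they were 81.9%, 57.6%, 48% and 59.5% against mock, and 79%, 42.7%, 41.9% and 54.6% against NCAC. For the change between 2 and 8 weeks they were 61.9%, 52%, 47.7% and 41.3%.

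Some members that were not called changed sign against mock at 8 weeks. With the oligodendrocyte covariate the log2 fold changes were 0.00488 for Acat2, 0.00859 for Mvk, 0.0386 for Pmvk, 0.00795 for Mvd, 0.0312 for Fdps, -0.0374 for Ggps1, 0.0772 for Insig1, 3.64e-06 for Stard4 and 0.0258 for Scd2. Ggps1 was at -0.0203 with median-of-ratios scaling, -0.028 with quantile normalization and -0.031 once mitochondrially encoded genes were removed, and Hsd17b7 at -0.00147 with quantile normalization. Without each replicate, Ggps1 spanned -0.0151 to 0.0283 and Hsd17b7 -0.0122 to 0.0834. Srebf2 was not called with no filter (adjusted p = 0.0514), the replicate block or the groups alone, and Ebp not with the groups alone (adjusted p = 0.0629). Acaca and Insig2 lost their calls under the settings given with them in the results. Srebf1 kept its call against mock at 8 weeks under every alternative listed.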
